A study of Mus musculus with 12 samples.

Results

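The genes described here are 10 protein-coding genes that flank Vaultrc5 on mouse chromosome 18: Slc35a4, Cd14, Tmco6, Ik, Wdr55, Dnd1, Hars, Hars2, Zmat2 and Taf7. They were chosen by name for their position beside the deleted gene, 10 of the 55450 genes in the count table. The rule uses no measured value, but it was set with earlier results of these data known. The study asked what mice lose when they lack Vaultrc5, which encodes a small non-coding vault RNA. Males of 7 to 9 weeks gave the brains and livers, whose total RNA was sequenced after depletion of ribosomal RNA. The groups were brain and liver of vaultrc5-/- mice, called knockout, and brain and liver of control mice, called wild type after their genotype label, with 3 libraries in each of the 4 groups. The titles of the control libraries carry the tag flx, which the labels do not explain, and no strain or other allele is named. The labels do not say whether the 3 libraries of a group came from separate mice, so p-values measure the spread between these samples, which may be technical.

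Vault RNAs are short transcripts of RNA polymerase III, named for the vault, a large ribonucleoprotein particle of the cytoplasm with which part of them associates. A deletion can change nearby genes in cis, for instance where it removes a promoter or an element that neighbours use, so the genes beside a deleted locus are a usual check on a knockout. The genes around Vaultrc5 mostly serve tasks of every cell. Hars and Hars2 encode the enzymes that charge histidine onto transfer RNA, Hars in the cytosol and Hars2 in mitochondria. Zmat2 and Ik encode proteins of the spliceosome before its activation, Taf7 encodes a subunit of the transcription factor TFIID, and Wdr55 encodes a WD-repeat protein of ribosomal RNA processing. Slc35a4 belongs to the nucleotide sugar transporter family. Cd14 and Dnd1 are known from particular cells: Cd14 is the co-receptor that hands bacterial lipopolysaccharide to Toll-like receptor 4 on macrophages and monocytes, and Dnd1 is an RNA-binding protein of germ cells.

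Positions are given on GRCm38 (mm10), 1-based, from the GENCODE M21 annotation. Vaultrc5 itself is a single exon of 143 bp at 36801866 to 36802008 on the plus strand. Of the flanking genes 9 lie before it on the chromosome. Zmat2 (36793876 to 36799666, plus strand) is the nearest, ending 2199 bp before Vaultrc5. Hars2 (36783008 to 36792562, plus strand) lies 9.3 kb away and Hars (36766528 to 36783205, minus strand) 18.7 kb away. These 2 genes run apart from a shared start region, their starts are 197 bp apart, and their exons overlap by 195 bp on opposite strands. Dnd1 (36763671 to 36766214, minus strand, 35.7 kb away) and Wdr55 (36760220 to 36763810, plus strand, 38.1 kb away) run towards each other and share 140 bp of exon. Ik (36744656 to 36757639, plus strand) lies 44.2 kb away and Tmco6 (36735039 to 36742397, plus strand) 59.5 kb away. Cd14 (36725067 to 36726798, minus strand, 1 merged exon) lies 75.1 kb away and Slc35a4 (36679215 to 36683861, plus strand) 118 kb away. Taf7 (37640491 to 37644204, minus strand) is the only one after Vaultrc5, 838.5 kb away. The clustered protocadherins named Pcdha and Pcdhb start between them, and those named Pcdhg start beyond Taf7.

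The deleted gene checked the labels. The 3 wild-type livers gave 33, 39 and 48 counts of Vaultrc5 and each knockout liver 0, at least 12.8-fold lower against a floor of 3 counts per library (2.10 CPM against 0.165 CPM, the mean of the 3 floors). CPM are counts scaled to library sizes adjusted by TMM, a scaling that assumes most genes do not differ. In brain it had 4, 1 and 4 counts in wild type and 0 in each knockout, levels around the floor, so no fold is given. Each brain library held 14844937 to 18567362 counts and each liver library 23247425 to 27155478, so the floor was 0.123 to 0.148 CPM for brain libraries and 0.149 to 0.169 CPM for livers. Brain libraries carried the neuron markers at a summed 2653 to 3483 CPM, against 25.7 to 34.5 CPM in liver. Liver libraries carried the hepatocyte markers at a summed 58040 CPM or more, against 437 CPM or less in brain. In brain these sums were 162 and 304 CPM in wild type replicates 1 and 3 and 437 CPM in knockout replicate 1. They were 4.35 CPM or less in the other brains. Among the livers knockout replicate 2 stood apart. It was the highest of the 6 livers in 7 of 7 acute-phase genes (a list chosen after the values were seen). Saa1 stood there at 1861 CPM against 11.3 to 213 CPM in the others. Liver wild type replicate 2 was the next highest in each of these genes, with Saa1 at 213 CPM. The liver knockout effects of the flanking genes are given with and without liver knockout replicate 2, since it stood apart. Among the brains knockout replicate 2 was the highest library in 5 of 6 neutrophil markers, which summed to 8.32 CPM there against 0.778 to 2.07 CPM in the other 5, and it had Lcn2 at 4.45 CPM against 0.0819 to 0.444 CPM. It was highest in 6 of 16 markers of microglia and Kupffer cells and in 2 of 7 acute-phase genes. All 120 deposited values of the flanking genes were whole numbers, although the table holds expected counts, which can be fractions where genes share reads.

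**Figure D1:**
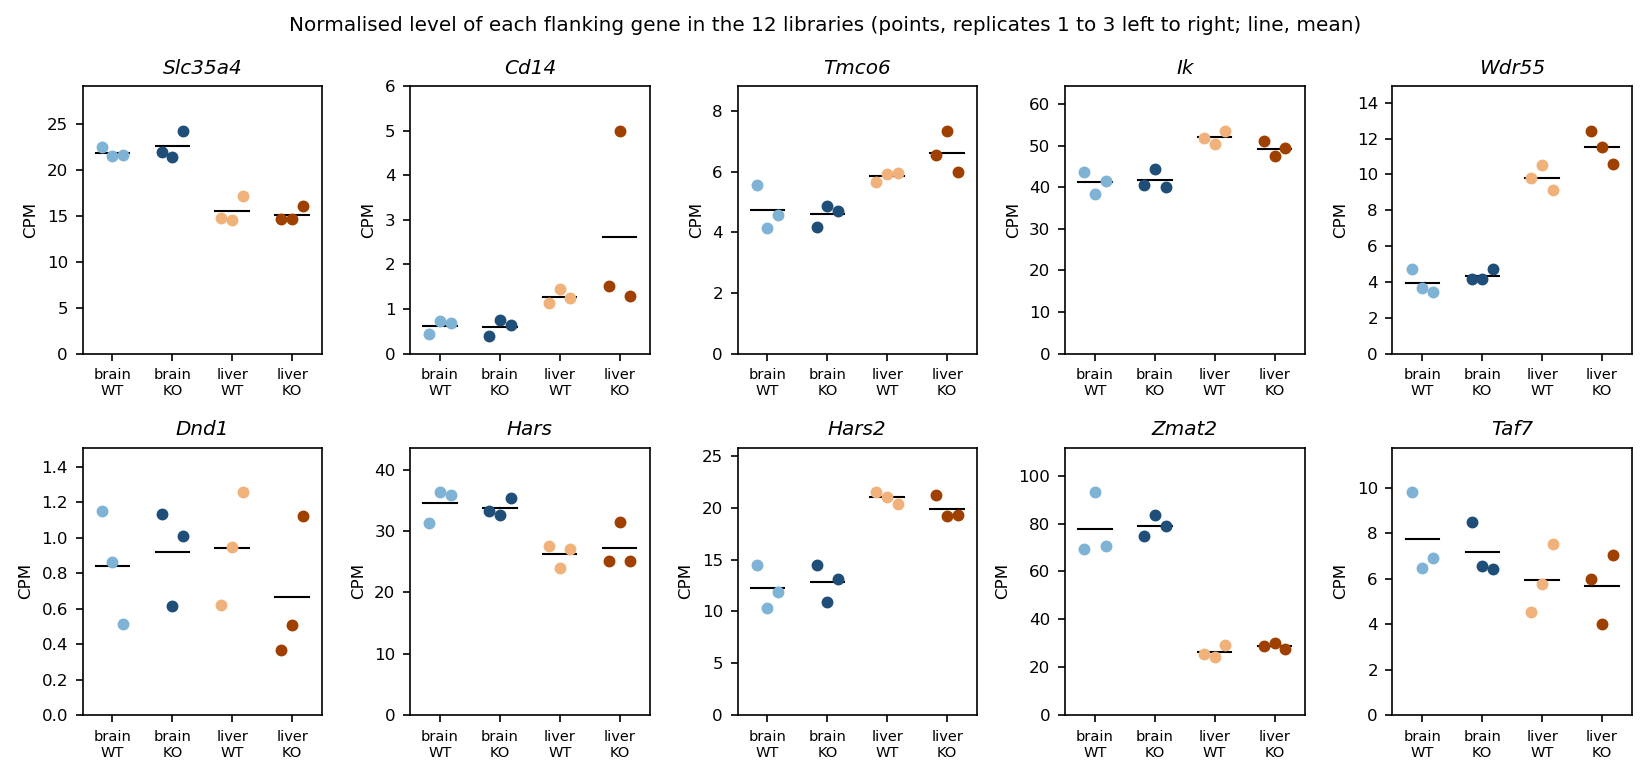
Level of each flanking gene in the 12 libraries, in CPM on a linear axis from 0, by tissue and genotype (WT, wild type; KO, knockout). Points are libraries in the order of replicates 1 to 3 and lines are group means; the wild-type and knockout points of a tissue overlap for every gene but Wdr55 and Tmco6 in liver, and 1 knockout liver stands above the others in Cd14.

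No flanking gene changed detectably with the knockout in either tissue. With edgeR's quasi-likelihood test and Benjamini-Hochberg adjustment, 0 of 10 were called in brain at an adjusted p under 0.05, beside 0.0% of the 18075 genes tested there. At an unadjusted p under 0.05 the counts were 0 of 10 and 122 of 18075 (0.675%). The adjusted p was 1.00 for each of them. In liver 0 of 10 were called, with adjusted p of 0.992 to 0.999, beside 0.0% of 15329 genes, and at an unadjusted p under 0.05 there were 0 of 10 and 536 of 15329 (3.5%). Without brain knockout replicate 2, edgeR also called 0 of 10 in brain (adjusted p = 0.999 for each), with log2 fold changes from -0.26 (SE 0.48) for Cd14 to 0.35 (SE 0.43) for Dnd1. The Wald test of DESeq2 also called 0 of 10 in each tissue, and its share over all genes is not given here. The median log2 fold change of the 10 genes was 0.008 in brain, beside -0.006 over all genes tested, and 0.018 in liver, beside 0.005. Their median absolute log2 fold change was 0.056 in brain and 0.111 in liver, beside 0.095 and 0.119 over all genes tested. Vaultrc5 itself, with 0 counts in every knockout liver, had an adjusted p of 0.333 in edgeR's test.

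**Figure D2:**
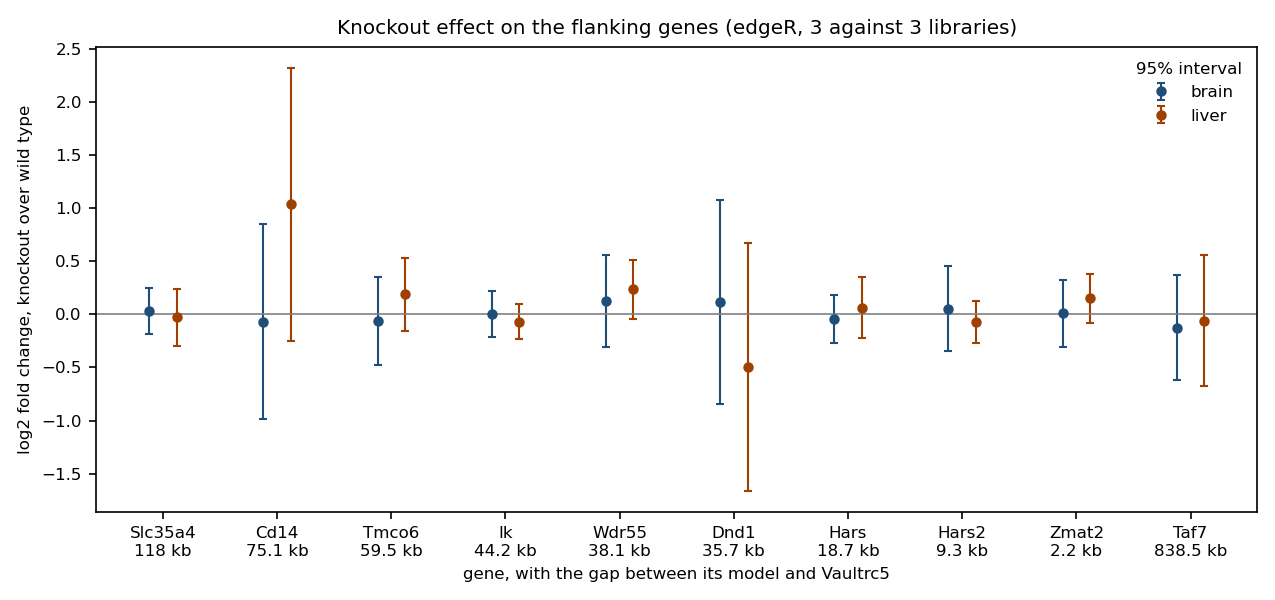
Log2 fold change of each flanking gene, knockout over wild type, with its 95% interval, in brain and liver, 3 against 3 libraries per tissue, in chromosome order with the gap to Vaultrc5. Every interval spans 0; the intervals of Cd14 and Dnd1 are the widest.

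The precision of the estimates differed between the genes. The 95% interval of the log2 fold change reached 0.215 to either side of the estimate for Ik in brain and 0.165 for Ik in liver, the narrowest. It reached 0.958 for Dnd1 in brain and 1.29 for Cd14 in liver, the widest. For Zmat2, the gene nearest to the deletion, the interval ran from 0.81-fold to 1.26-fold in brain and from 0.949-fold to 1.30-fold in liver. A p that misses the threshold does not show that the levels are the same, and these intervals give the range of changes compatible with the data.

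Neither tRNA synthetase gene was called in either tissue. Hars stood at 31.3, 36.4 and 35.9 CPM in wild-type brain and at 33.3, 32.7 and 35.4 CPM in knockout brain. In liver it stood at 27.6, 24.0 and 27.1 CPM in wild type and at 25.1, 31.5 and 25.1 CPM in knockout. The groups overlapped in both tissues, and the highest knockout liver was replicate 2. The log2 fold change of Hars was -0.04 (SE 0.10) in brain and 0.06 (SE 0.12) in liver, where it was -0.06 without that library. Hars2, the mitochondrial enzyme, stood at 14.5, 10.4 and 11.9 CPM in wild-type brain and at 14.5, 10.9 and 13.2 CPM in knockout brain. Its liver values were 21.5, 21.1 and 20.4 CPM in wild type and 21.3, 19.2 and 19.3 CPM in knockout. These groups overlapped too, although 2 of the 3 knockout livers lay below every wild-type liver, and the log2 fold changes were 0.05 (SE 0.17) in brain and -0.07 (SE 0.09) in liver, -0.05 (SE 0.10) without liver knockout replicate 2. When liver libraries were scaled by their totals in place of TMM, the Hars2 groups no longer overlapped, with knockout lower.

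The splicing genes showed the same picture. Zmat2 stood at 69.5, 93.2 and 70.7 CPM in wild-type brain and at 74.8, 83.7 and 78.9 CPM in knockout brain. In liver it stood at 25.5, 24.3 and 29.1 CPM in wild type and at 29.0, 30.3 and 27.7 CPM in knockout. Replicate 2 was the highest brain library of both genotypes, and the groups overlapped in each tissue. The log2 fold change was 0.01 (SE 0.13) in brain and 0.15 (SE 0.10) in liver, 0.11 (SE 0.11) without liver knockout replicate 2. Ik stood at 43.8, 38.5 and 41.6 CPM in wild-type brain and at 40.5, 44.4 and 40.2 CPM in knockout brain. Its liver values were 51.9, 50.5 and 53.7 CPM in wild type and 51.1, 47.5 and 49.4 CPM in knockout, again with overlap. The log2 fold change of Ik was 0.0036 (SE 0.09) in brain and -0.07 (SE 0.07) in liver, -0.05 (SE 0.08) without that library.

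Wdr55 and Tmco6 were the only flanking genes whose groups did not overlap in liver under TMM. Wdr55 stood at 9.78, 10.5 and 9.16 CPM in the wild-type livers and at 12.5, 11.5 and 10.6 CPM in the knockout livers, so the lowest knockout lay just above the highest wild type. The log2 fold change was 0.24 (SE 0.12, adjusted p = 0.992 in edgeR's test), and 0.23 (SE 0.14) without liver knockout replicate 2. Tmco6, which encodes a transmembrane and coiled-coil protein, stood at 5.68, 5.92 and 5.96 CPM in the wild-type livers and at 6.56, 7.37 and 5.99 CPM in the knockout livers. Its log2 fold change was 0.19 (SE 0.15, edgeR adjusted p = 0.992), and 0.10 (SE 0.16) without that library. The 2 of 10 genes with groups that did not overlap in liver stand beside 9.62% of all genes tested there, and with library totals there were 3 of 10, beside 10.2%. In brain there were 0 of 10, beside 4.23% of all genes, and 0 of 10 with library totals, beside 4.09%. There Wdr55 stood at 4.73, 3.69 and 3.41 CPM in wild type and at 4.14, 4.14 and 4.72 CPM in knockout, and Tmco6 at 5.57, 4.14 and 4.56 CPM in wild type and at 4.19, 4.89 and 4.72 CPM in knockout. Their brain log2 fold changes were 0.13 (SE 0.18) for Wdr55 and -0.06 (SE 0.17) for Tmco6. The brain value of Wdr55 ran from 0.041 without brain wild type replicate 3 to 0.27 without brain wild type replicate 1.

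Slc35a4 and Taf7, the flanking genes farthest from Vaultrc5, also overlapped between the genotypes in both tissues. Slc35a4 stood at 22.5, 21.5 and 21.5 CPM in wild-type brain and at 21.96, 21.4 and 24.2 CPM in knockout brain. In liver its values were 14.8, 14.5 and 17.2 CPM in wild type and 14.6, 14.6 and 16.1 CPM in knockout. The groups overlapped, with log2 fold changes of 0.03 (SE 0.09) in brain and -0.03 (SE 0.12) in liver, -0.01 (SE 0.14) without liver knockout replicate 2. Of the 50-base stretches of Slc35a4, 12.04% also occur on the same strand in the pseudogene Gm5866, so its level carries an uncertainty of assignment that the SE does not cover. Taf7 stood at 9.81, 6.47 and 6.91 CPM in wild-type brain and at 8.49, 6.56 and 6.42 CPM in knockout brain. Its liver values were 4.55, 5.77 and 7.53 CPM in wild type and 5.99, 3.99 and 7.05 CPM in knockout. Taf7 spread widely within every group, and its log2 fold changes were -0.12 (SE 0.21) in brain and -0.06 (SE 0.27) in liver, where it was 0.13 without liver knockout replicate 2.

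Dnd1 was low in both tissues. It had 26, 21 and 12 counts in wild-type brain and 23, 14 and 22 in knockout brain. Its liver counts were 11, 19 and 24 in wild type and 7, 9 and 20 in knockout. The groups overlapped, and the log2 fold change was 0.12 (SE 0.40) in brain and -0.49 (SE 0.50) in liver. The liver value was -0.34 (SE 0.58) without liver knockout replicate 2, -1.10 without liver knockout replicate 3 and -0.18 without liver knockout replicate 1. Part of these counts cannot be placed by position alone, since 140 bp of its exons lie opposite Wdr55 and the use of strand in counting is not given in the sources used here. The summed germ cell markers reached 0.224 CPM at most in liver, with Tdrd1, Mael, Nanos2 and Nanos3 at 0 in every liver library, and 3.27 to 6.63 CPM in brain.

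Cd14 carried the largest estimate among the flanking genes in liver, and it rested on 1 library. Wild-type livers held 20, 29 and 24 counts (1.12, 1.44 and 1.26 CPM) and knockout livers 29, 89 and 23 counts (1.52, 5.01 and 1.29 CPM). Knockout replicate 1 lay just above every wild type and knockout replicate 3 within their range, and knockout replicate 2 alone was far higher. The log2 fold change was 1.04 (SE 0.55, adjusted p = 0.992 in edgeR's test) with all 6 livers and 0.14 (SE 0.31) without that library. In brain Cd14 had 10, 18 and 16 counts in wild type and 8, 17 and 14 in knockout, with a log2 fold change of -0.07 (SE 0.39).

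Same-numbered livers deviated together, so the signs within same-numbered pairs were counted as well, after the values were seen. Under TMM, Cd14, Wdr55 and Tmco6 were higher in knockout in 3 of 3 pairs, 3 of 10 flanking genes beside 14.0% of all genes tested. Hars2, Ik and Dnd1 were lower in 3 of 3 pairs, again 3 of 10, beside 14.8%. With library totals 3 were higher, beside 10.7%, and 4 were lower, beside 19.2%, Slc35a4 being the fourth. With the replicate number as a block, the log2 fold change of Cd14 was 0.84 (SE 0.39, edgeR adjusted p = 0.803) and that of Dnd1 -0.54 (SE 0.39, adjusted p = 0.843), and none of the 10 was called.

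Liver knockout replicate 2 was also highest in 16 of 16 markers of microglia and Kupffer cells, the macrophages of brain and liver, which summed to 681 CPM there against 280 to 390 CPM in the other 5 livers. It was also highest in 5 of 6 neutrophil markers, which summed to 4.61 CPM at most in any liver, and in 6 of 10 genes of Toll-like receptor 4 signalling other than Cd14. Lbp, which carries lipopolysaccharide to Cd14, stood at 286 CPM there against 73.2 to 86.7 CPM in the others, Lcn2 at 300.4 CPM against 1.16 to 6.62 CPM, and Hp at 4695 CPM against 1091 to 1827 CPM. The part of these genes and cells in the Cd14 value was not tested. In bulk tissue, more cells of a type and more RNA per cell cannot be told apart.

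**Figure D3:**
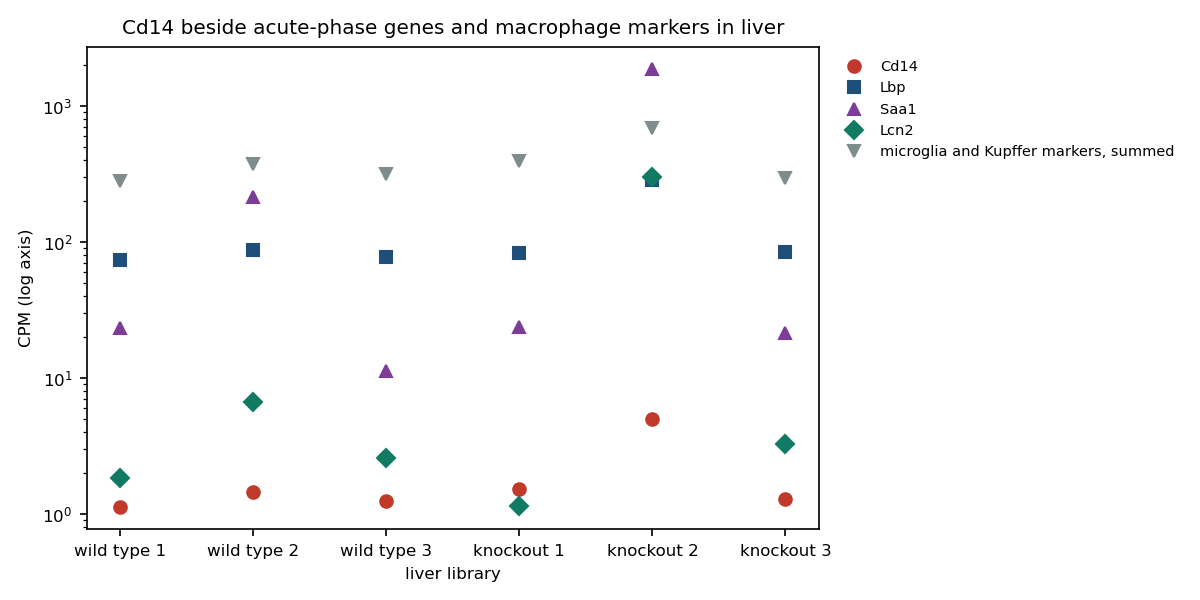
Cd14, the acute-phase genes Lbp, Saa1 and Lcn2, and the summed microglia and Kupffer cell markers in each of the 6 liver libraries, in CPM on a log axis. Knockout replicate 2 is the highest library in each of the 5 series, with Cd14 at 5.01 CPM against 1.12 to 1.52 CPM in the others.

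No flanking gene responded detectably differently to the knockout in the 2 tissues. In a fit of all 12 libraries the interaction test of edgeR called 0 of 10, beside 0.0% of 20141 genes, and at an unadjusted p under 0.05 it counted 0 of 10 and 489 of 20141. DESeq2 called 0 of 10 as well, its share over all genes again not given. The adjusted p was 1.00 for each of the 10. The difference for Cd14, liver minus brain, was 1.08 log2 units (SE 0.72), and 0.195 without liver knockout replicate 2.

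Of 51 other genes that start within 1 Mb of Vaultrc5, leaving out 55 clustered protocadherins, 23 were tested in brain and 15 in liver. None was called by edgeR, and at an unadjusted p under 0.05 there were 0 in brain and 1 in liver. That gene was Eif4ebp3, a translation repressor of the 4E-BP family, with a log2 fold change of 0.99 (SE 0.24, edgeR adjusted p = 0.992) in liver and 0.66 (SE 0.14, adjusted p = 0.999) without liver knockout replicate 2. It stood at 9.05, 8.21 and 8.69 CPM in the wild-type livers and at 12.7, 23.7 and 14.7 CPM in the knockout livers, which did not overlap. Eif4ebp3 shares reads with AC115631.1 and Ankhd1, models that overlap it or each other on the same strand: its counts were fractional in 11 of 12 libraries, while the sum over the 3 models was whole (within 0.015) in 12 of 12. That sum was 134.6, 122.2 and 130.4 CPM in the wild-type livers and 147.1, 140.3 and 164.8 CPM in the knockout livers, without overlap under TMM. With library totals the sums overlapped, at 90.44 to 101.3 CPM in wild type and 99.48 to 126.6 CPM in knockout. The part of read assignment in the value of Eif4ebp3 was not tested. In the same liver fit Ankhd1 had a log2 fold change of 0.14 (SE 0.11) and AC115631.1 of 0.37 (SE 0.23), which was 0.60 (SE 0.13) without liver knockout replicate 2. Without that library 2 of the 15 genes had an unadjusted p under 0.05 and none was called. In brain the smallest p among genes that overlap no flanking gene belonged to AC115631.1 (-0.32, SE 0.23), Igip (-0.09, SE 0.07) and Gm26672 (0.42, SE 0.37). Igip stood at 79.5, 79.2 and 80.02 CPM in wild-type brain and at 76.7, 75.8 and 72.96 CPM in knockout brain, without overlap, and its liver groups overlapped.

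**Figure D4:**
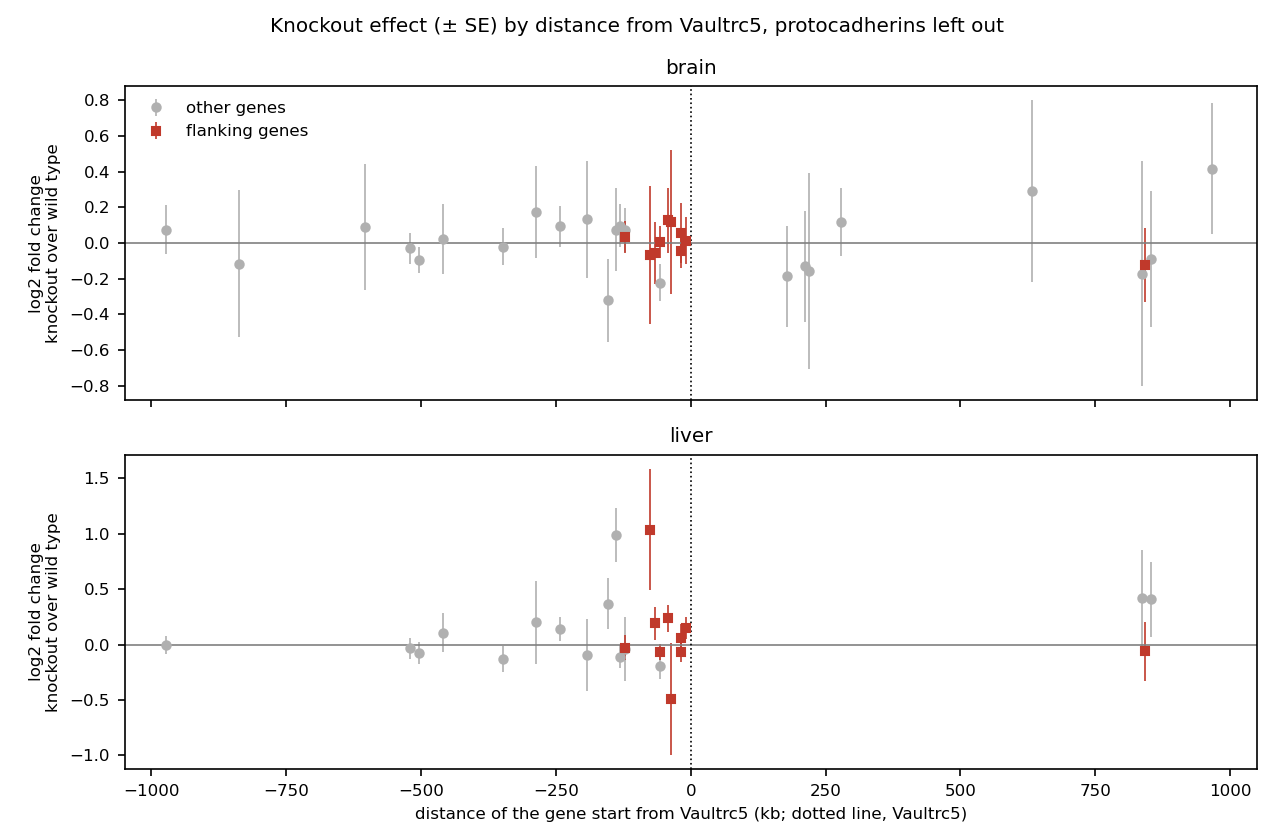
Log2 fold change (knockout over wild type, bars ± SE) against the distance of the gene start from Vaultrc5, in brain and liver, for the flanking genes and the other genes tested within 1 Mb, without protocadherins. The 3 nearest, Zmat2, Hars and Hars2, lie between -0.07 and 0.15 in both tissues, Dnd1 as the next lies at -0.49 in liver, and the highest liver points are Cd14 at 1.04 and Eif4ebp3 at 0.99.

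Ndufa2, a subunit of respiratory complex I, overlaps the end of Tmco6 by 66 bp of exon on the opposite strand and was lower in knockout with groups that did not overlap in both tissues, under TMM and under library totals. It stood at 13.7, 13.5 and 14.5 CPM in wild-type brain and at 12.4, 11.3 and 12.3 CPM in knockout brain. In liver it stood at 35.1, 28.9 and 28.2 CPM in wild type and at 24.6, 27.7 and 27.7 CPM in knockout. The log2 fold changes were -0.22 (SE 0.10, adjusted p = 1.00 in edgeR's test) in brain and -0.19 (SE 0.12, adjusted p = 0.992) in liver, -0.23 (SE 0.13) without liver knockout replicate 2. Neither passed the test. Under TMM the groups did not overlap for 4.23% of all genes tested in brain and 9.62% in liver. The share without overlap in both tissues was not counted. Apbb3, which overlaps Slc35a4 by 152 bp, had log2 fold changes of 0.07 (SE 0.12) in brain and -0.04 (SE 0.29) in liver, 0.13 (SE 0.29) without that library. Of the long models that span Taf7 on the other strand with 0 bp of shared exon, Gm37013 was at 0 in all libraries, and Gm42416 and Gm37388 were at 0 in all livers.

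The flanking genes spanned a wide range of levels per length. In wild-type brain Zmat2 led with 30.0 CPM per kb of exon (SD 5.14, n = 3), followed by Hars at 14.1, Ik at 11.4 and Slc35a4 at 6.67 CPM per kb, each apart from the next. Hars2 (2.86), Taf7 (2.34) and Wdr55 (2.15 CPM per kb) followed with overlapping ranges, then Tmco6 at 1.41 CPM per kb, and Cd14 (0.358) and Dnd1 (0.348 CPM per kb) overlapped at the bottom. In wild-type liver Ik led with 14.3 CPM per kb (SD 0.435, n = 3), and Hars (10.7) and Zmat2 (10.1 CPM per kb) overlapped below it. Wdr55 (5.35), Hars2 (4.91) and Slc35a4 (4.72 CPM per kb) formed the next step, each overlapping its neighbour in the order, above Taf7 (1.80) and Tmco6 (1.74), which overlapped, then Cd14 (0.736) and Dnd1 (0.390 CPM per kb). In the knockout groups Zmat2 again led in brain and Ik in liver.

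Brain and liver differed for most flanking genes, and the direction of several depends on the scaling. Scaling by library totals in place of TMM moved the median log2 difference of all genes, brain over liver, by 0.839 in wild type and by 0.879 in knockout, from 0.211 to 1.05 and from 0.206 to 1.08. Under TMM, edgeR's test called 7 of 10 flanking genes in wild type: 3 higher in brain, beside 43.9% of 18850 genes, and 4 higher in liver, beside 34.7%. Under library totals it also called 7, of which 6 were higher in brain, beside 61.7% of all genes, and 1 in liver, beside 21.2%. In the knockout libraries, which the wild-type fit does not use, 7 were called under TMM: 2 higher in brain, beside 43.5% of 18785 genes, and 5 higher in liver, beside 35.2%. Library totals gave 6, beside 62.1%, and 1, beside 20.6%. Most genes of the table differed between the tissues too, so these counts are no result about the flanking genes as a group.

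Zmat2 and Slc35a4 were higher in brain, and Wdr55 was higher in liver, in both genotypes and under both scalings. Zmat2 was 69.5 to 93.2 CPM in all 6 brain libraries and 24.3 to 30.3 CPM in all 6 livers, with no overlap. Its log2 difference, brain over liver, was 1.57 (SE 0.15, edgeR adjusted p = 3.19e-05) in wild type and 1.43 (SE 0.09, adjusted p = 5.25e-06) in knockout, and 2.41 and 2.31 with library totals. Slc35a4 was higher in brain by 0.50 (SE 0.12, adjusted p = 0.0045) in wild type and by 0.56 (SE 0.11, adjusted p = 0.00231) in knockout, and by 1.34 and 1.44 with library totals. Wdr55 was lower in brain, with log2 differences of -1.31 (SE 0.18, adjusted p = 0.000303) and -1.42 (SE 0.15, adjusted p = 7.69e-05). With library totals they were -0.47 (adjusted p = 0.0454) and -0.54 (adjusted p = 0.012).

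For the other genes the call or the direction depended on the scaling or the genotype. In some TMM fits with 1 library left out, Cd14 and Hars lost their calls in wild type. In knockout, Cd14, Tmco6 and Ik lost theirs in some such fits, and Ik also with the replicate number as a block. These losses are listed with the effects of the processing. Hars was higher in brain under TMM by 0.40 (SE 0.11, edgeR adjusted p = 0.0116) in wild type. In knockout its value was 0.30 (SE 0.12, adjusted p = 0.0534), and 0.39 (adjusted p = 0.0134) without liver knockout replicate 2. With library totals Hars was called in both genotypes, at 1.24 (edgeR adjusted p = 3.01e-05) and 1.18 (adjusted p = 3.79e-05). Cd14 was lower in brain under TMM, with -1.02 (SE 0.33, adjusted p = 0.0205) in wild type and -2.12 (SE 0.61, adjusted p = 0.0135) in knockout, the latter -1.26 (adjusted p = 0.0269) without that library. With library totals the Cd14 values were -0.19 and -1.23, and neither was called (adjusted p = 0.592 and 0.0811). Hars2 was lower in brain under TMM, with -0.77 (SE 0.15, adjusted p = 0.00176) and -0.65 (SE 0.14, adjusted p = 0.00369), and higher by 0.07 and 0.23, not called, with library totals. Ik was lower in brain under TMM, with -0.33 (SE 0.10, adjusted p = 0.0138) and -0.26 (SE 0.09, adjusted p = 0.0309), and higher by 0.51 and 0.62 with library totals, both called. Tmco6 gave -0.29 (SE 0.18, adjusted p = 0.175) in wild type and -0.54 (SE 0.17, adjusted p = 0.0201) in knockout under TMM, the latter not called without liver knockout replicate 2 (adjusted p = 0.0553), and 0.55 and 0.34 with library totals. Taf7 (0.38, SE 0.25) and Dnd1 (-0.16, SE 0.42) were not called in wild type under TMM; with library totals Taf7 was called at 1.22, and Dnd1 stood at 0.67, the opposite direction, not called. In knockout neither was called under TMM, with Taf7 at 0.32 (SE 0.25) and Dnd1 at 0.45 (SE 0.49), opposite in sign to its wild-type value. With single libraries left out these values ran from 0.096 (without liver knockout replicate 2) to 0.48 (without liver knockout replicate 3) for Taf7. For Dnd1 they ran from 0.14 (without liver knockout replicate 1) to 1.03 (without liver knockout replicate 3). With library totals both were called there by edgeR, Taf7 at 1.19 (adjusted p = 0.00388) and Dnd1 at 1.32 (adjusted p = 0.0413).

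**Figure D5:**
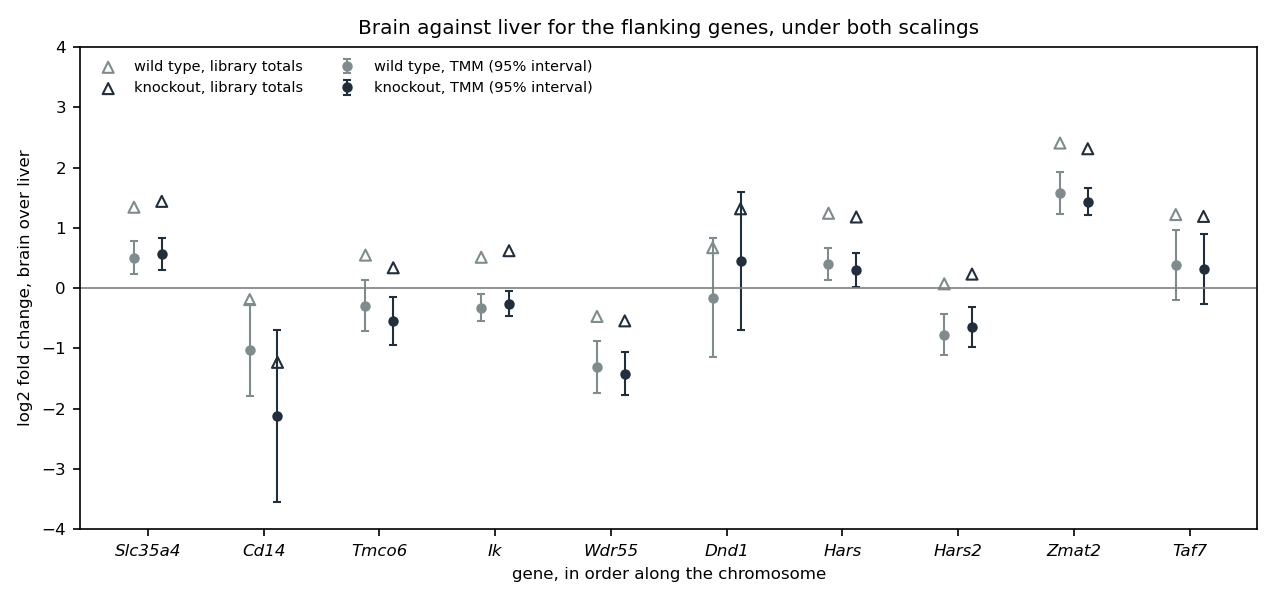
Log2 fold change of each flanking gene, brain over liver, in wild type and knockout, under TMM (circles, 95% intervals) and under library totals (triangles). Zmat2, Slc35a4, Hars and Taf7 lie above 0 and Wdr55 and Cd14 below 0 under both scalings. The TMM intervals of Taf7 span 0. Hars2, Ik and Tmco6 in both genotypes, and Dnd1 in wild type, change side between the scalings.

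Ratios of 2 counts within a library do not depend on the scaling, and their pairs were chosen after the values were seen. Hars outnumbered its divergent partner Hars2 by 2.16 to 3.51 counts to 1 in the brain libraries and by 1.14 to 1.64 in the livers, with no overlap. Zmat2 outnumbered Ik by 1.59 to 2.42 in brain and fell below it in liver, at 0.48 to 0.542 in wild type and 0.561 to 0.637 in knockout. The liver genotypes did not overlap in this ratio, which is a description only, since the pair was picked with its values known. Wdr55 outnumbered Dnd1, with which it converges, by 3.65 to 6.71 in brain and by 7.29 to 33.9 in liver.

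The partners of the flanking genes in their complexes and pathways, counted without the flanking genes, were not called by edgeR in the knockout of either tissue. Of 34 other aminoacyl-tRNA synthetase genes tested, 0 were called in brain and liver, with 0 and 1 at an unadjusted p under 0.05. Of 6 other genes of the spliceosome B complex 0 and 0 had such a p, and of 15 other TFIID genes 0 and 1. Of the other genes of Toll-like receptor 4 signalling 0 of 9 in brain and 0 of 10 in liver were called, and none had such a p. The median liver log2 fold change of these 10 was 0.10, beside 0.005 over all genes, and 0.08 without liver knockout replicate 2.

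Between the wild-type tissues these lists stand beside the shares of all genes, 43.9% higher in brain and 34.7% in liver under TMM, and 61.7% and 21.2% with library totals. Of the 34 synthetase genes, 4 were higher in brain and 24 in liver under TMM, and 14 and 11 with library totals. Tars and Fars2 led them under TMM (-2.99, SE 0.15, and -1.65, SE 0.11, brain over liver). Of the 10 Toll-like receptor 4 genes, 0 were higher in brain and 10 in liver under TMM, among them the adaptors Ticam1 (-2.64, SE 0.16) and Myd88 (-2.59, SE 0.16), and 0 and 8 with library totals. Of the 6 spliceosome genes, 3 were higher in brain and 2 in liver under TMM, led by Smu1, the partner of Ik (-0.73, SE 0.11), and Mfap1b (0.85, SE 0.13), and 4 and 0 with library totals. Of the 15 TFIID genes, 4 were higher in brain and 4 in liver under TMM, led by Taf9b (3.83, SE 0.23) and Taf10 (-1.23, SE 0.10), and 13 and 1 with library totals. Whether a list departs from all genes was not tested.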

How the data were processed

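Total RNA libraries from brain and liver (12 in all, 3 per group) were grouped by title and genotype label. The authors deposited 1 table of expected counts for each gene in each library, neither normalized nor pooled. Per the submitters' processing notes, cutadapt, STAR and mm10 were used; how reads were counted, and with which strand setting, is not given in the sources used here. The library kit was stranded and the reads single-end, per the labels' protocols. All 55450 identifiers and symbols matched GENCODE M21.

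Counts were rounded and tested with edgeR 4.0.16 (R 4.3.3; quasi-likelihood F-test, robust, TMM, filterByExpr with a minimum count of 10 and total of 15) over all genes passing the filter, with Benjamini-Hochberg adjustment and a threshold of 0.05. All 10 flanking genes passed in both tissues. SE is the log2 fold change over the root of F. CPM use TMM over all 12 libraries. The floor is 3 counts and, like the intervals, covers counting error or library spread only, since the libraries carried no molecular identifiers and reads can be copies of 1 molecule. Fits were tested on simulated data. Replicate pairs differed by 27.2 to 228 times the degrees of freedom of a chi-square test, so none was a repeat of the same library. Separate preparations of 1 sample can also differ beyond counting error, so this test cannot tell whether replicates came from separate mice. Same-numbered wild-type and knockout livers deviated together (correlations 0.322, 0.336 and 0.384 over 13935 genes). The numbers, taken from the titles, were therefore treated as pairing the livers, although the labels do not say what they mark. The blocked fit changed no call among the flanking genes in liver. Alternatives were DESeq2 1.42.0, DESeq2 size factors, library totals, no filter, a replicate block, all 12 libraries in 1 fit, and each library left out in turn. Leaving out liver or brain knockout replicate 2 was singled out, the partner lists were stripped of the flanking genes, and signs within liver pairs were counted, after the data were seen. The flanking genes, lists and named genes (all flanking and overlapping genes, the 3 other genes within 1 Mb with the smallest p in each knockout comparison, and the 2 leading genes of a list with calls) were chosen with earlier results of these data known. Sequence is not printed.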

Additional observations from a re-analysis of the deposited data

How the results depend on the processing

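For the knockout, 0 flanking genes were called in brain, in liver and in the interaction under every alternative run, with adjusted p of 0.995 to 1.00, 0.677 to 1.00 and 1.00. With library totals, the brain knockout value of Ik turned to -0.001, and the wild-type brain over liver values of Tmco6, Ik, Dnd1 and Hars2 turned to 0.55, 0.51, 0.67 and 0.07, those of Tmco6, Ik and Hars2 in knockout to 0.34, 0.62 and 0.23. When 1 library was left out at a time, brain knockout values ran from -0.26 to 0.15 for Cd14, -0.13 to 0.40 for Dnd1, -0.11 to -0.003 for Hars, -0.05 to 0.19 for Hars2, -0.042 to 0.043 for Ik, -0.024 to 0.08 for Slc35a4, -0.26 to 0.079 for Taf7, -0.15 to 0.065 for Tmco6, 0.041 to 0.27 for Wdr55 and -0.065 to 0.16 for Zmat2. Liver values ran from 0.14 to 1.36 for Cd14, -1.10 to -0.18 for Dnd1, -0.064 to 0.13 for Hars, -0.103 to -0.05 for Hars2, -0.097 to -0.048 for Ik, -0.086 to 0.053 for Slc35a4, -0.26 to 0.14 for Taf7, 0.10 to 0.25 for Tmco6, 0.19 to 0.28 for Wdr55 and 0.09 to 0.23 for Zmat2, and interaction values from 0.195 to 1.40 for Cd14, -1.23 to -0.34 for Dnd1, -0.034 to 0.20 for Hars, -0.23 to -0.034 for Hars2, -0.12 to -0.004 for Ik, -0.13 to 0.01 for Slc35a4, -0.14 to 0.25 for Taf7, 0.15 to 0.32 for Tmco6, -0.012 to 0.20 for Wdr55 and -0.03 to 0.24 for Zmat2. The wild-type tissue value of Dnd1 ran from -0.46 to 0.087. Calls between tissues numbered 5 to 7 in wild type, where Cd14 lost its call without brain wild type replicate 1 or 3 or liver wild type replicate 2 or 3 (adjusted p = 0.0502 to 0.0723), and Hars without brain wild type replicate 2 or 3 or liver wild type replicate 2 (0.0634 to 0.0765). Cd14 also lost its call there with no filter (adjusted p = 0.0554), in 1 fit of all 12 libraries (0.0856) and with library totals. In knockout the calls numbered 4 to 7, with 4 without brain knockout replicate 1, where Cd14, Tmco6 and Ik lost theirs (adjusted p = 0.0508, 0.0597 and 0.0873). Tmco6 also lost its call without brain knockout replicate 3 or liver knockout replicate 2 (0.0537 and 0.0553), and Ik without brain knockout replicate 3 or liver knockout replicate 1 (0.108 and 0.0751) and with no filter (0.0961). Smaller sets give less power by construction; the cause was not tested otherwise. With the replicate number as a block, Ik lost its call in knockout brain over liver (-0.26, edgeR adjusted p = 0.0656), and no other call of a flanking gene changed. Same-numbered brains of the 2 genotypes deviated together for replicates 1 and 2 but not 3 (correlations 0.669, 0.634 and -0.021 over 15974 genes). Of 6 brain libraries 4 correlated best with their own number, so the numbers tracked the brains only in part. Same-numbered libraries of brain and liver hardly deviated together (correlations 0.00725 to 0.0677). Over all genes the block raised the calls in liver and in the interaction from 0 to 2. All flanking genes passed the filter, so the exact test planned for genes below it was not run. Depth limits Dnd1 and Cd14 most, at 7 to 29 counts in all but 1 library.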

Other observations

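Within a tissue, the same replicate number was often the highest library of both genotypes. This held for 5 of 10 flanking genes in brain, beside 52.5% of 18075 genes, and for 5 of 10 in liver, beside 44.1% of 15329 genes. In brain, replicate 2 was highest in both genotypes for Zmat2 and Cd14, and replicate 1 for Hars2, Taf7 and Dnd1. Over all genes tested in liver, knockout replicate 2 was the highest library for 21.1% and the lowest for 24.5% of genes.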
